A study of Mus musculus with 6 samples.

Results

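The imprinted genes of the mouse Prader-Willi region were followed here in medulloblastoma, a tumour of the cerebellum. The members were the transcripts whose gene symbol was Magel2, Ndn, Mkrn3, Peg12, Snrpn, Snurf, Snhg14 or Ube3a, which gave 8 of 52550 genes and 40 of 131100 transcripts. Bulk RNA sequencing of total RNA covered 3 tumours labelled Eed mutant and 3 tumours labelled wild type for Eed. Eed encodes a core subunit of Polycomb repressive complex 2, the enzyme that places the repressive mark H3K27me3 on chromatin. The sources used here do not give the Eed allele, any promoter driving a Cre, the tumour model, the strain or the age of the mice. Whether each tumour came from its own mouse is not stated either, so p-values measure the spread between these libraries, which may be technical.

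The region is a textbook case of genomic imprinting. Magel2, Ndn, Mkrn3, Peg12, Snrpn with its upstream reading frame Snurf, and the long noncoding host transcript Snhg14 are read from the paternal chromosome. Ube3a is read from both chromosomes in most cells and mainly from the maternal one in neurons, where Snhg14 runs antisense over the paternal copy. An imprinting centre at the Snrpn promoter sets which chromosome is used, and in people loss of the paternal genes gives Prader-Willi syndrome and loss of maternal UBE3A gives Angelman syndrome. The libraries were not split by parent of origin, so every value below is the sum over both chromosomes, and fewer expressing cells cannot be told apart from less RNA per cell.

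The genes spanned 3.24 Mb of chromosome 7 on GRCm38, in GENCODE M21 coordinates. Ube3a lay at chr7:59228750-59311536 on the plus strand and Snhg14 at chr7:59307924-59975759 on the minus strand, with their ends overlapping. Snrpn lay at chr7:59982495-60140219 and Snurf at chr7:59995449-60005049, both on the minus strand. Ndn (chr7:62346569-62350262) and Magel2 (chr7:62377010-62381640) were on the plus strand, and Mkrn3 (chr7:62417593-62420139) and Peg12 (chr7:62461871-62464510) on the minus strand. The files listed 18 transcripts of Ube3a, 15 of Snhg14, 2 of Snrpn and 1 of each other gene.

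Start regions are shown for the gene with the largest log2 fold change between the groups (Magel2), for its neighbour Ndn, and for the RefSeq starts nearest those of the 2 Snrpn transcripts in the files. Each runs 5′ to 3′ from 250 bases before the start to 50 bases after it, from RefSeq on GRCm38.p6. Capitals mark CGCATGCG in Ndn and Snrpn and GGGCGG or its reverse complement CCGCCC in Magel2. CGCATGCG is the core of the palindrome known to be bound by NRF1, and GGGCGG is the GC box known for Sp1. Both were searched on both strands and were chosen after the sequences were seen.
Magel2, chr7:62376729-62377028, plus strand: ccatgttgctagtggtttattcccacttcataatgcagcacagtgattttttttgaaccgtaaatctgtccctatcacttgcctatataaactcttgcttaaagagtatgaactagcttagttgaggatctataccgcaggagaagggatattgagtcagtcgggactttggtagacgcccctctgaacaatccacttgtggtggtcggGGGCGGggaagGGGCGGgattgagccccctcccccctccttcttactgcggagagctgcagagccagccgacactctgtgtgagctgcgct
Ndn, chr7:62348027-62348326, plus strand: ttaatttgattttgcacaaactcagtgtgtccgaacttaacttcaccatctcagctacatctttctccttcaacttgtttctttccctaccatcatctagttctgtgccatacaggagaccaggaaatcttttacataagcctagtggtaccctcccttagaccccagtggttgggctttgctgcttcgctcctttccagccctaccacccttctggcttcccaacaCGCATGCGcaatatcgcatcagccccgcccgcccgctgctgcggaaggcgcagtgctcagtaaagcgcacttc
Snrpn canonical start, chr7:60005150-60005449, minus strand: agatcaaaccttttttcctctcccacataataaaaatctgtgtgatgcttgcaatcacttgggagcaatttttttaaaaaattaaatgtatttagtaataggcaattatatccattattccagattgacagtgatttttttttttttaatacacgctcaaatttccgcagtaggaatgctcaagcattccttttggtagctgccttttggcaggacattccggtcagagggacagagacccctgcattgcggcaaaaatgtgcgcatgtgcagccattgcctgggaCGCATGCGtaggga
Snrpn upstream start, chr7:60140176-60140475, minus strand: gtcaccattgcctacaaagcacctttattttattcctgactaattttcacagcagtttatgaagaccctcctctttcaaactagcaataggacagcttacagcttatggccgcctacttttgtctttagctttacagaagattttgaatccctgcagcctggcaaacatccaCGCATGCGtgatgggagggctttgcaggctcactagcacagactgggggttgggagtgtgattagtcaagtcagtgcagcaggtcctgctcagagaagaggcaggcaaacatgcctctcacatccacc

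CGCATGCG occurred in the Ndn region and in all 4 RefSeq Snrpn start regions, of which the canonical one is also that of Snurf and the farthest upstream one (chr7:60450128-60450427) is also that of Snhg14. It was not found in the 300 bases of Magel2, Mkrn3, Peg12 or Ube3a, and 610 of 32544 RefSeq start regions (1.87%) held it. GGGCGG occurred 2 times each in Magel2, Ndn and Ube3a, and 35.9% of start regions held it. The 3 upstream Snrpn regions were 79.7% to 81.4% identical to each other and 50.4% to 53.0% identical to the canonical one. CpG pairs numbered 29 in Ube3a, 15 in Mkrn3, 12 in Peg12, 11 in Ndn, 10 in Magel2 and 7 at the canonical Snrpn start, beside a median of 7 over all start regions. These windows follow the RefSeq starts, which are not always those of the transcripts measured. The measured Ndn transcript starts at chr7:62346569 and Snrpn-201 at chr7:60005111, both outside the windows printed, and the GENCODE end of Snhg14 nearest Snrpn, at chr7:59975759, is far from its RefSeq window.

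The libraries held 26186236 to 26425111 estimated counts each, and 3 counts corresponded to about 0.114 CPM (counts scaled to library size and TMM factors). Eed itself stood at 32.6, 36.8 and 30.7 CPM in mutant replicates 1 to 3, against 43.8, 30.1 and 35.6 CPM in wild-type replicates 1 to 3. The groups overlapped for Eed, and with the allele unknown this level does not check the labels. The tissue label was read against 12 granule progenitor genes, the cell type from which many medulloblastomas form. All 12 were detected, with summed levels of 5050 to 5665 CPM in mutant tumours and 5419 to 5742 CPM in wild-type tumours. Detection alone does not check the label, since 28424 to 28635 genes were above 0 in each library. The genes of the list did not move together, with log2 fold changes of -0.46 for Sfrp1 and 1.11 for Hhip.

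Levels of the genes were compared with each other in TPM, which is per length. In mutant tumours Snurf averaged 177 ± 12.6 TPM, Snrpn 121 ± 11.5, Snhg14 109 ± 0.933, Ndn 49.7 ± 6.43, Ube3a 44.1 ± 2.59, Peg12 10.2 ± 1.69, Mkrn3 6.38 ± 1.20 and Magel2 1.55 ± 0.766 TPM (SD, n = 3). In wild-type tumours Snurf averaged 238 ± 92.9 TPM, Snrpn 158 ± 32.3, Snhg14 133 ± 10.7, Ube3a 48.0 ± 4.34, Ndn 43.1 ± 11.4, Peg12 7.33 ± 1.90, Mkrn3 6.14 ± 1.02 and Magel2 0.257 ± 0.193 TPM (SD, n = 3). In mutant tumours the 3 libraries of each gene did not overlap with those of the next gene in this order. In wild-type tumours Snurf overlapped with Snrpn, Snrpn with Snhg14, Ube3a with Ndn, and Peg12 with Mkrn3. The place of Snurf rests on a single transcript of 216 bases, all of whose 31-base words also occur in Snrpn or the readthrough gene Gm38393. Magel2 was the lowest of the 8 genes in every library.

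Magel2 stood apart from the other 7 genes. It encodes a MAGE protein that, with the ubiquitin ligase Trim27, acts in retrograde transport of proteins from endosomes. Magel2 had 4.91, 2.46 and 7.18 CPM in mutant replicates 1 to 3, against 0.189, 0.833 and 1.37 CPM in wild-type replicates 1 to 3. Every mutant tumour was higher than every wild-type tumour, and the lowest wild-type library rested on 4.83 estimated counts. The mean was 4.85 ± 2.36 CPM in mutant tumours and 0.797 ± 0.591 CPM in wild-type tumours (SD, n = 3 each), a log2 fold change of 2.60 with a standard error of 0.629.

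The 2 count tests differed on Magel2. edgeR's quasi-likelihood test gave an unadjusted p of 0.00422 and an adjusted p of 0.152 over all genes. DESeq2, run as an alternative, gave a log2 fold change of 2.61 and an adjusted p of 0.000734. At an adjusted p under 0.05, edgeR called 0 of the 8 genes beside 0.0% of the 19145 genes tested, where its smallest adjusted p was 0.0808. DESeq2 called 1 of the 8 beside 5.22% of genes with an adjusted p. At an unadjusted p under 0.05, edgeR had 2 of the 8 higher in mutants (Magel2 and Peg12) beside 9.29% of genes, and 1 lower (Snrpn) beside 8.78%. Groups did not overlap for 2 of the 8, Magel2 and Snrpn, beside 25.0% of genes tested, a share equal to that among the 8.

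The higher Magel2 level was seen among tumours that share a code in the names of the deposited files, a code whose meaning the sources used here do not give. Among the tumours of the commonest code, mutant replicates 1 and 2 had 4.91 and 2.46 CPM of Magel2, against 0.833 CPM in wild-type replicate 2. Among those of a further code, mutant replicate 3 had 7.18 CPM against 1.37 CPM in wild-type replicate 3. No mutant tumour had the code of wild-type replicate 1. With the code as a term, the log2 fold change of Magel2 was 2.26. Leaving out wild-type replicate 3 gave 3.24, and leaving out wild-type replicate 1 gave 2.14.

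**Figure D1:**
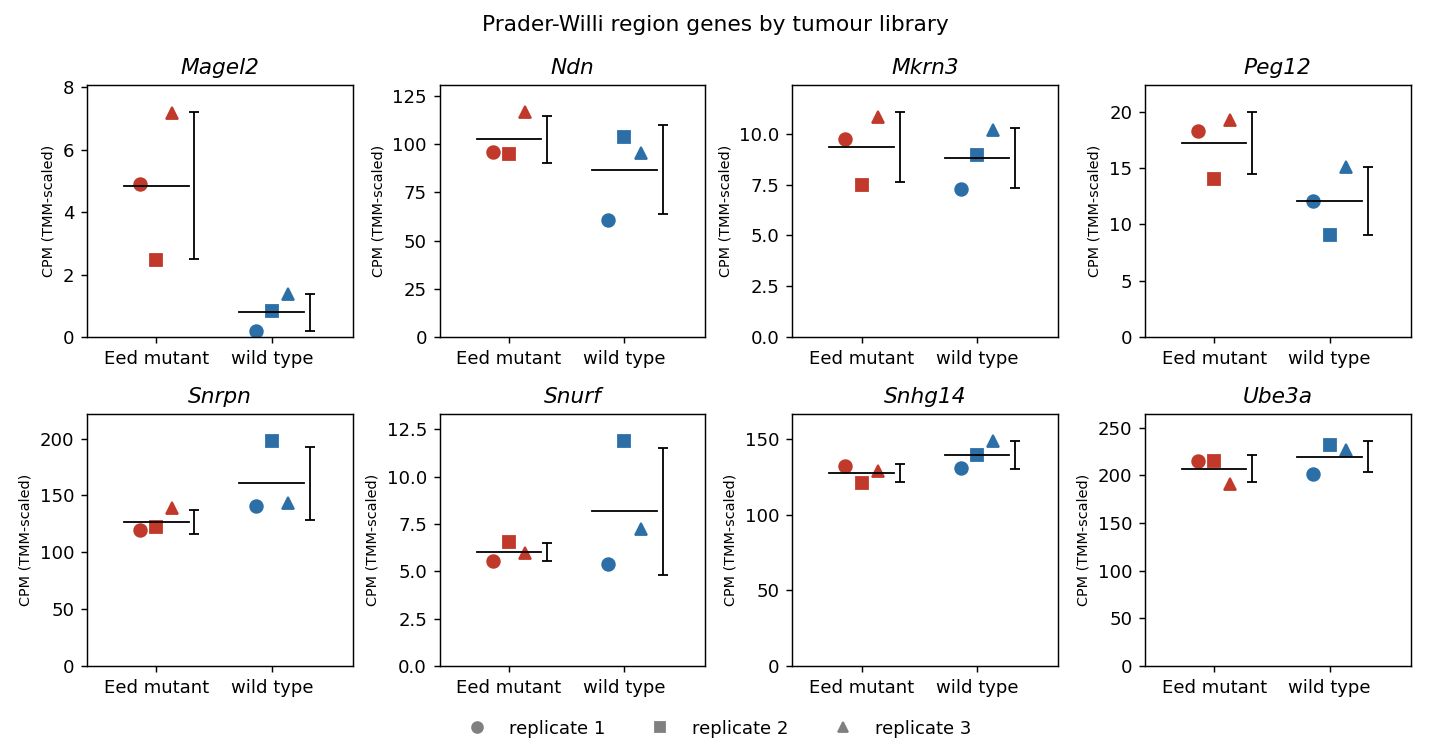
Level of each Prader-Willi region gene in TMM-scaled CPM (vertical axes from 0) in 3 Eed mutant and 3 wild-type tumours. Points are libraries, with a shape for each replicate number, horizontal lines are group means and bars are ± 1 SD; for Magel2 all mutant tumours lie above all wild-type tumours, and for Snrpn all lie below.

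Skeletal muscle genes moved with Magel2 across the 6 tumours. The 16 genes of a skeletal muscle list summed to 179, 95.5 and 497 CPM in mutant replicates 1 to 3, against 12.04, 13.1 and 40.1 CPM in wild-type replicates 1 to 3. The tumours therefore fell in the same order for the muscle sum as for Magel2, with mutant replicate 3 highest and wild-type replicate 1 lowest. All 16 were tested. DESeq2 called 14 of them higher in mutants, beside 2.96% of all genes. edgeR called 0, with all 16 higher at an unadjusted p under 0.05, beside 9.29% of all genes. The median log2 fold change was 3.47 beside -0.01 over all genes. The list was chosen with earlier results of these data known. Myh3, the embryonic myosin heavy chain, had the highest log2 fold change of the list at 4.56, and Des, the muscle intermediate filament desmin, the lowest at 2.22. No gene of the list was at 0 in every library, and the part of muscle RNA in the Magel2 difference was not tested.

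The genes whose profile over the 6 libraries was nearest to that of Magel2 also belonged to muscle. Likeness was the root-mean-square difference between log2 CPM profiles, each centred on its own mean. The nearest were Mb, the oxygen-binding myoglobin, at 0.266, Mylk4, a myosin light chain kinase family member, at 0.443, and Tnnc2, the fast muscle troponin C, at 0.452. Mb was at 1.80, 0.691 and 3.40 CPM in mutant replicates 1 to 3, against 0, 0.265 and 0.342 CPM in wild-type replicates 1 to 3. The nearest of the other Prader-Willi region genes, Peg12, came at rank 535 with a difference of 1.33. All points share the 6 libraries, and no test was made of these distances.

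**Figure D2:**
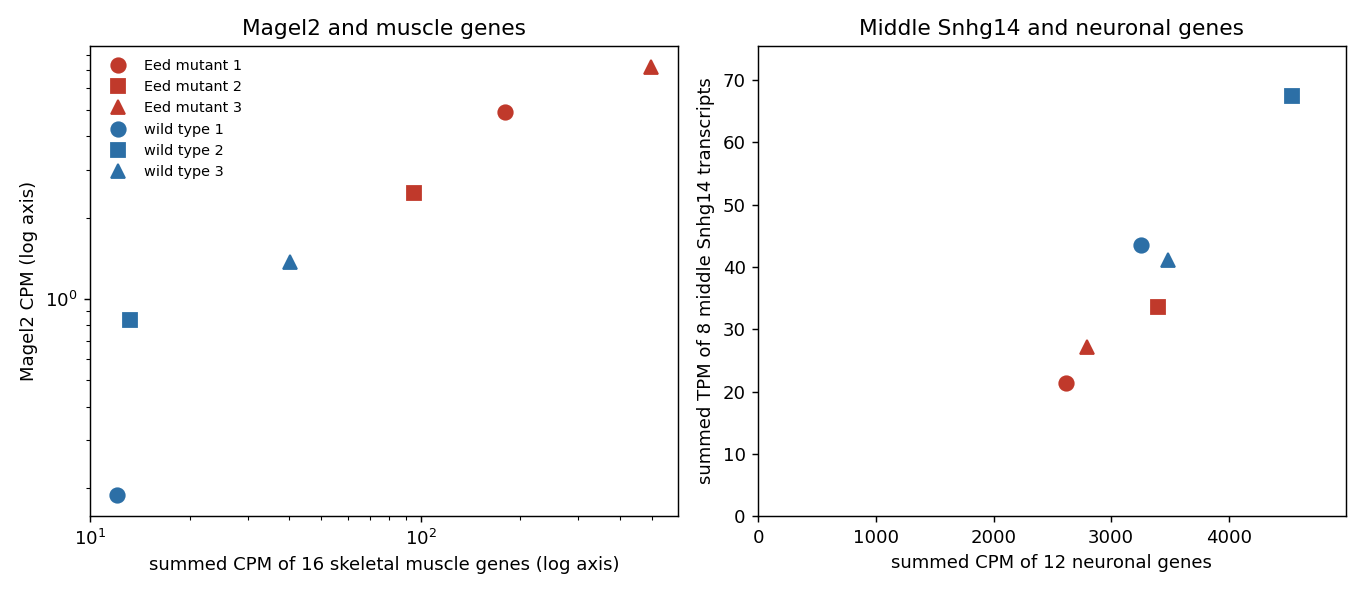
Left, Magel2 in CPM against the summed CPM of 16 skeletal muscle genes, both on log axes; right, summed TPM of 8 Snhg14 transcripts starting 100 to 400 kb from Snrpn against the summed CPM of 12 neuronal genes. Each point is 1 tumour library, and mutant replicate 3 is highest on both axes at left while wild-type replicate 2 is highest on both axes at right.

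Ndn lies next to Magel2 and encodes necdin, a MAGE protein known as a growth suppressor of neurons. Ndn had 96.2, 94.9 and 116.7 CPM in mutant replicates 1 to 3, against 60.7, 104.0 and 95.6 CPM in wild-type replicates 1 to 3. The groups overlapped, since only wild-type replicate 1 was below all mutants. The log2 fold change of Ndn was 0.24 with a standard error of 0.196 and an edgeR adjusted p of 0.538. Without wild-type replicate 1 it was 0.04, and a fit that included the file code gave 0.05.

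Mkrn3 encodes a makorin ubiquitin ligase known in people as a brake on the onset of puberty. Mkrn3 had 9.75, 7.49 and 10.9 CPM in mutant replicates 1 to 3, against 7.29, 8.97 and 10.2 CPM in wild-type replicates 1 to 3. Both groups covered nearly the same range, with a log2 fold change of 0.09, a standard error of 0.189 and an edgeR adjusted p of 0.840. The direction of Mkrn3 turned to -0.03 without wild-type replicate 1 or without mutant replicate 3.

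Peg12, also called Frat3, is an intronless relative of the Frat genes, which bind the kinase Gsk3. Peg12 had 18.3, 14.1 and 19.2 CPM in mutant replicates 1 to 3, against 12.04, 9.01 and 15.1 CPM in wild-type replicates 1 to 3. Mutant replicates 1 and 3 were above all wild-type tumours, and mutant replicate 2 was below wild-type replicate 3. The mean of Peg12 was 17.2 ± 2.76 CPM in mutant tumours and 12.04 ± 3.02 CPM in wild-type tumours (SD, n = 3 each). Its log2 fold change was 0.52 with a standard error of 0.208, and its adjusted p was 0.261 in edgeR and 0.159 in DESeq2. Without wild-type replicate 2 the value was 0.34.

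Snrpn encodes SmN, the neuronal form of the SmB protein of the spliceosome. Snrpn had 119.6, 122.0 and 138.9 CPM in mutant replicates 1 to 3, against 140.6, 198.0 and 143.0 CPM in wild-type replicates 1 to 3. All mutant tumours were below all wild-type tumours, by a narrow margin between mutant replicate 3 and wild-type replicate 1. The log2 fold change of Snrpn was -0.34 with a standard error of 0.142, and its adjusted p was 0.273 in edgeR and 0.218 in DESeq2. Wild-type replicate 2 carried much of the difference, and without it the value was -0.16.

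Snurf, the small reading frame upstream of Snrpn on the same messenger RNA, had 5.57, 6.53 and 5.97 CPM in mutant replicates 1 to 3, against 5.36, 11.9 and 7.22 CPM in wild-type replicates 1 to 3. Its groups overlapped, wild-type replicate 2 was again the highest, and the log2 fold change was -0.44 with a standard error of 0.284 and an edgeR adjusted p of 0.444. Without wild-type replicate 2 it was -0.06. The split of reads among Snrpn, Snurf and Gm38393 is uncertain, because 32.2% of the 31-base words of transcript Snrpn-201 and all of those of Snurf occur in other genes. Summed over Snrpn and Snurf, the level was 125.2, 128.5 and 144.9 CPM in mutant replicates 1 to 3. In wild-type replicates 1 to 3 it was 145.9, 209.9 and 150.2 CPM, so all mutant tumours were lower. Summed over Snrpn, Snurf and Gm38393, the level was 152.3, 152.5 and 167.8 CPM in mutant replicates 1 to 3, against 164.1, 235.8 and 182.3 CPM in wild-type replicates 1 to 3. The groups of this sum overlapped.

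The transcript that starts near the canonical start carried nearly all Snrpn counts. This transcript, Snrpn-201, had 3110, 3169 and 3632 estimated counts in mutant replicates 1 to 3, against 3724, 5189 and 3738 in wild-type replicates 1 to 3. Snrpn-202, whose start lies in the upstream window printed above, had 6.06, 5.69 and 43.4 estimated counts in mutant replicates 1 to 3, against 0, 41.9 and 22.8 in wild-type replicates 1 to 3. The libraries of the groups were interleaved for Snrpn-202, and its direction differed between the processing alternatives.

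Snhg14 is the long host transcript from which the small nucleolar RNAs of the region are cut, and its far end runs over Ube3a. Snhg14 had 132.5, 121.3 and 129.3 CPM in mutant replicates 1 to 3, against 130.7, 139.4 and 148.9 CPM in wild-type replicates 1 to 3. The groups overlapped through mutant replicate 1 and wild-type replicate 1. The log2 fold change of Snhg14 was -0.13 with a standard error of 0.069 and an edgeR adjusted p of 0.365. Summed in TPM, which weighs short transcripts more, Snhg14 was at 107.5, 108.7 and 109.3 in mutant replicates 1 to 3, against 123.2, 144.4 and 131.0 in wild-type replicates 1 to 3. The groups of these sums did not overlap.

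The transcripts of Snhg14 differed among themselves. Of 15 listed, 13 were tested, 11 with a negative and 2 with a positive log2 fold change. Mutants were all lower for 3 of the 13, beside 8.36% of transcripts, and the same 3, Snhg14-203, Snhg14-205 and Snhg14-214, had an unadjusted edgeR p under 0.05, beside 4.71%. edgeR called 0 of the 24 member transcripts tested at an adjusted p under 0.05, beside 0.0% of 50890 transcripts. Magel2-201, higher in all mutant tumours, had an unadjusted edgeR p of 0.00933. DESeq2 called 2, beside 2.43%. The 2 called by DESeq2 were Magel2-201, with an adjusted p of 0.0203, and Snhg14-203.

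Snhg14-203, which starts 309 kb from the Snrpn-201 start, had 60.8, 67.7 and 59.8 estimated counts in mutant replicates 1 to 3, against 103.7, 160.3 and 112.6 in wild-type replicates 1 to 3. All mutant tumours were below all wild-type tumours. Its log2 fold change was -0.98 with a standard error of 0.230, and its adjusted p was 0.377 in edgeR and 0.0474 in DESeq2. Its share of Snhg14 counts was 1.89% ± 0.224 in mutant tumours and 3.41% ± 0.820 in wild-type tumours (SD, n = 3 each), with an exact two-sided permutation p of 0.1, the smallest that 3 against 3 can give. None of its 31-base words occurred in another gene, but words shared with other Snhg14 transcripts were not counted. Its span overlaps those of Snhg14-201 and Snhg14-214, and how reads were split among these transcripts was not tested.

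Transcripts near Snrpn had values closer to 0. Snhg14-209, which starts 31 kb from the Snrpn-201 start and carried the largest share of mean Snhg14 counts in mutant tumours, had a log2 fold change of 0.17 with a standard error of 0.184. Its share of Snhg14 counts was 40.5% ± 3.29 in mutant tumours and 33.1% ± 7.12 in wild-type tumours (SD, n = 3 each), with an exact two-sided permutation p of 0.2. Without wild-type replicate 2 the difference in share was 3.31 in place of 7.40 percentage points, and the log2 fold change of Snhg14-209 was 0.00017. Snhg14-211, at 29 kb, had -0.13 with a standard error of 0.115. At the far end, where Snhg14 overlaps Ube3a, Snhg14-213 had 0.21 with a standard error of 0.245. That transcript shares 48.2% of its 31-base words with Ube3a, and without a stated strand setting reads of the pair cannot be told apart.

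Summed in 3 stretches that were drawn after the values were seen, and so carry no test, the middle stretch differed most. The 8 transcripts starting 100 to 400 kb from the Snrpn-201 start summed to 21.4, 33.5 and 27.2 TPM in mutant replicates 1 to 3, against 43.5, 67.4 and 41.1 TPM in wild-type replicates 1 to 3. All mutant tumours were below all wild-type tumours there, at a ratio of means of 0.540. In estimated counts, which weigh short transcripts less, the ratio was 0.624, again without overlap. The stretch was not uniform, since Snhg14-206, at 142 kb, had a log2 fold change of -0.15. Without wild-type replicate 2, Snhg14-201 was at -0.51 in place of -0.95, Snhg14-202 at -0.51 in place of -0.92 and Snhg14-214 at -0.35 in place of -0.56. The counts of Snhg14-201 are less certain, because 49.0% of its 31-base words occur in other genes. The 3 transcripts within 50 kb summed to 74.7, 61.6 and 71.0 TPM in mutant replicates 1 to 3, against 68.6, 53.8 and 77.3 TPM in wild-type replicates 1 to 3, a ratio of 1.04 with overlapping groups. The 4 transcripts beyond 500 kb had a ratio of 0.771, with overlapping groups.

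Neuronal genes moved in part with this middle stretch. The 12 genes of a general neuronal list summed to 2616, 3400 and 2798 CPM in mutant replicates 1 to 3, against 3255, 4538 and 3482 CPM in wild-type replicates 1 to 3. The sums overlapped between groups, and wild-type replicate 2 was highest for both measures. The median log2 fold change of the list was -0.39, DESeq2 called 1 of 12 lower, beside 2.26% of all genes, and no gene was at 0 in every library. The sum of 10 oligodendrocyte genes was also highest in wild-type replicate 2. It was 567 to 653 CPM in mutant tumours and 758 to 1644 CPM in wild-type tumours. Olig2 of this list went the other way, with a log2 fold change of 0.61 and overlapping groups. Its lowest level was 38.9 CPM, in wild-type replicate 2. DESeq2 called 7 of these 10 lower, edgeR called 0 with 8 lower at an unadjusted p under 0.05, and their median log2 fold change was -1.38. Of 12 differentiated granule neuron genes, DESeq2 called 3 lower, edgeR called 0 with 6 lower at an unadjusted p under 0.05, and their median was -0.50. Over all genes, 2.26% were called lower by DESeq2 and 8.78% were lower at an unadjusted edgeR p under 0.05. The part of these cell types in the Snhg14 values was not tested. The other marker lists had median log2 fold changes between -0.71 (Purkinje cells) and 0.39 (endothelium). The Purkinje cell sum was 439 to 613 CPM in mutant tumours and 658 to 1048 CPM in wild-type tumours, highest in wild-type replicate 2. The endothelial sum went the other way, at 171 to 181 CPM in mutant tumours and 119 to 158 CPM in wild-type tumours.

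**Figure D3:**
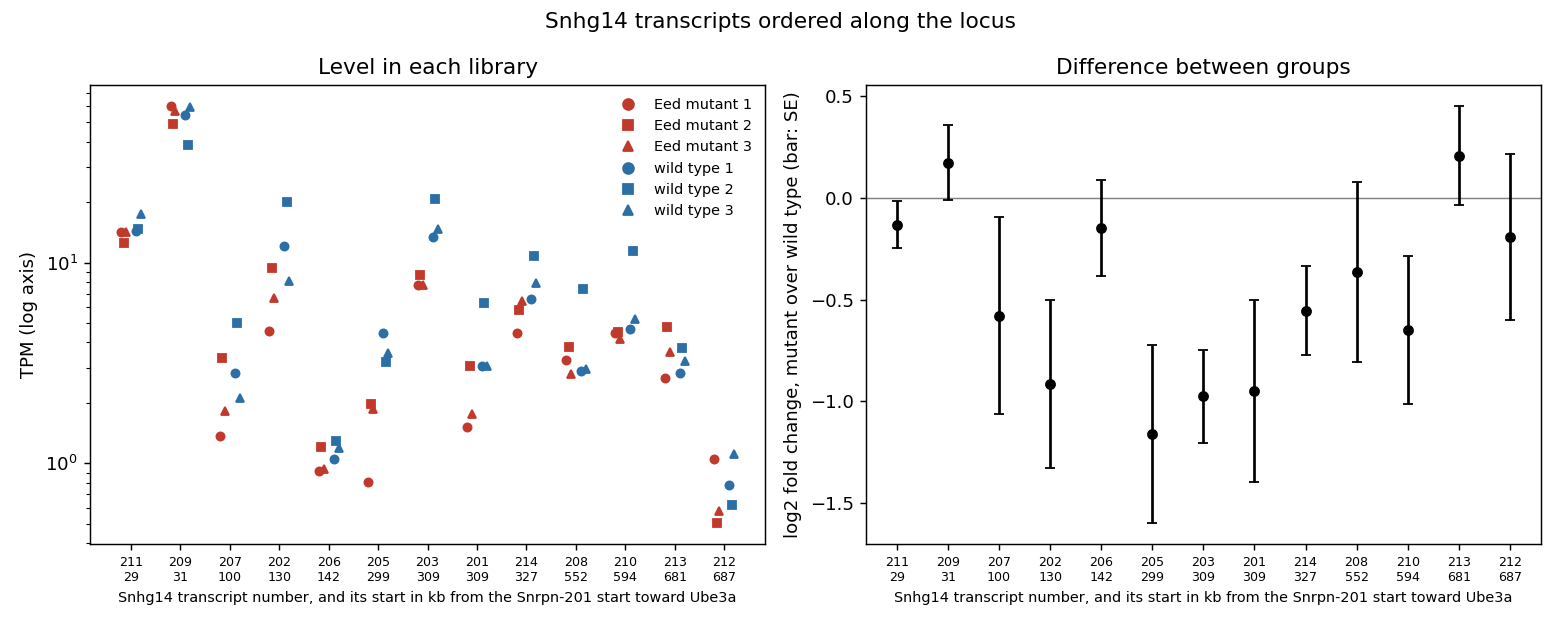
The 13 tested Snhg14 transcripts in order of their start, in kb from the Snrpn-201 start toward Ube3a, with the TPM of each tumour library (left, log axis) and the log2 fold change of mutant over wild type with its standard error (right). Transcripts 202, 205, 203 and 201, starting at 130 to 309 kb, have log2 fold changes of -1.16 to -0.92, 206 at 142 kb has -0.15, and 209 and 213 lie above 0.

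Ube3a encodes the HECT ubiquitin ligase E6-AP. Ube3a had 215.6, 215.3 and 190.6 CPM in mutant replicates 1 to 3, against 201.1, 232.0 and 226.4 CPM in wild-type replicates 1 to 3. The groups overlapped, with a log2 fold change of -0.09, a standard error of 0.082 and an edgeR adjusted p of 0.606. One transcript, Ube3a-203, held 96.6% ± 0.586 of Ube3a counts in mutant tumours and 96.5% ± 0.477 in wild-type tumours (SD, n = 3 each), and 8 of the 18 Ube3a transcripts were at 0 in every library. In all, 16 transcript shares of Snhg14 and Ube3a were tested, and the smallest p adjusted over them was 0.8.

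The highest library was mutant replicate 3 for Magel2, Ndn, Mkrn3 and Peg12, which lie together at the far side of the region. It was wild-type replicate 2 for Snrpn, Snurf and Ube3a, and wild-type replicate 3 for Snhg14. Summed over the 8 genes, the level was 602.5, 584.0 and 618.8 CPM in mutant replicates 1 to 3, against 558.0, 704.2 and 647.7 CPM in wild-type replicates 1 to 3, with overlapping groups. The median log2 fold change of the 8 was 0.00.

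Each of the other genes had its own nearest profiles. For Ndn the nearest was Gm20427, at a root-mean-square difference of 0.0566, for Peg12 it was the hexokinase gene Hk2 at 0.0625, and for Mkrn3 it was Acacb, an acetyl-CoA carboxylase, at 0.0519. For Snrpn it was Arrb1, a beta-arrestin, at 0.0302, for Snurf it was Galnt15 at 0.0471, with the synaptic vesicle gene Syp also among its nearest at 0.0771. For Snhg14 it was the signal peptide peptidase H13 at 0.0206, and for Ube3a it was the autophagy gene Rb1cc1 at 0.0274. None of the 8 genes had another of the 8 among its 3 nearest, and the nearest pair among them, Snhg14 and Ube3a, differed by 0.0902. Even so, Ube3a was at rank 892 for Snhg14, and Snhg14 at rank 888 for Ube3a. The profiles were not scaled, so genes that vary little lie close to each other, and these distances were not tested.

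The genes around the region were described from a list of 24 neighbours, of which 21 were tested. edgeR called 0 of them at an adjusted p under 0.05. At an unadjusted p under 0.05, 4 were higher, beside 9.29% of all genes, and 2 lower, beside 8.78%. DESeq2 called 1 higher, beside 2.96%, and 1 lower, beside 2.26%. Their median log2 fold change was -0.05. Mphosph10, a ribosome biogenesis factor, had 50.7, 48.1 and 43.5 CPM in mutant replicates 1 to 3, against 34.7, 31.6 and 35.2 CPM in wild-type replicates 1 to 3, with a log2 fold change of 0.49 and a DESeq2 adjusted p of 0.000981. Apba2, a neuronal adaptor that binds the amyloid precursor protein, had a log2 fold change of -0.24 and a DESeq2 adjusted p of 0.0175.

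A list of noncoding genes of the region had 4 gene identifiers that could be tested, 3 of them with the symbol A230057D06Rik. DESeq2 called 2 of the 4 lower, both of them A230057D06Rik, beside 2.26% of genes. edgeR called 0 of the 4, with 3 lower at an unadjusted p under 0.05, beside 8.78% of genes. A230057D06Rik, a lincRNA at chr7:61704519-61928690 between Snrpn and Ndn, had 19.5, 27.5 and 24.7 CPM in mutant replicates 1 to 3, against 40.5, 50.4 and 27.5 CPM in wild-type replicates 1 to 3. Its groups met at mutant replicate 2 and wild-type replicate 3. Its log2 fold change was -0.72 with a standard error of 0.228, and its adjusted p was 0.194 in edgeR and 0.0382 in DESeq2. A330076H08Rik, at chr7:61930137-61982358, had a log2 fold change of -0.52 and a DESeq2 adjusted p of 0.134. Further gene identifiers with the symbol A230057D06Rik, with no coordinates in M21, had log2 fold changes of -0.66 and -0.56. The first of these had a DESeq2 adjusted p of 0.0269. The median of the 4 was -0.61. A230006K03Rik and B230209E15Rik of that list were too low to be tested, at 0.0756 to 0.302 CPM in mutant tumours and 0.0378 to 0.227 CPM in wild-type tumours, and Gm9801, a lincRNA between Snrpn and Ndn outside the list, had a log2 fold change of 0.14. Of the small nucleolar RNA genes in that list, Snord64, Snord107, Snord116l1 and Snord116l2 were listed at 0 in every library. These genes are shorter than the 216-base Snurf transcript. Whether these libraries can count RNA so short was not tested, so the 0 is not read as absence.

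Near the overlap of Ube3a and Snhg14, A230103L15Rik had 2.00, 2.23 and 2.38 CPM in mutant replicates 1 to 3, against 3.55, 5.41 and 4.03 CPM in wild-type replicates 1 to 3. All mutant tumours were below all wild-type tumours, with a log2 fold change of -0.97, a standard error of 0.207 and an adjusted p of 0.144 in edgeR and 0.0100 in DESeq2. It was chosen after its values were seen, as one of the 2 genes called by DESeq2 within 1 Mb of the outermost members. Within 1 Mb, 18 other genes were tested, with a median log2 fold change of -0.35. Within 5 Mb there were 70, with a median of 0.00. Both windows include genes that lie over the members themselves. Among these are 9330162G02Rik and Gm44560 over Ube3a, A230103L15Rik over Snhg14, and the readthrough gene Gm38393 over Snrpn and Snurf. The median within 1 Mb is therefore not that of separate neighbours only.

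**Figure D4:**
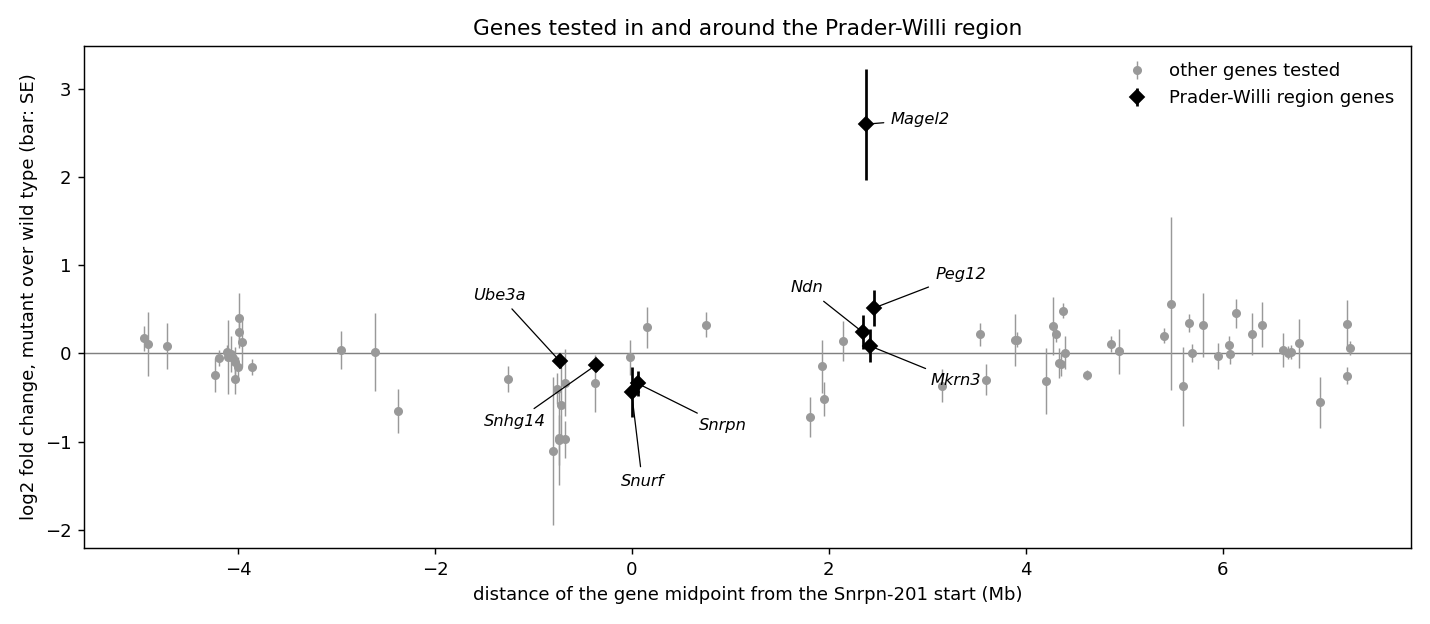
Log2 fold change of mutant over wild type with its standard error (vertical axis) for the 8 Prader-Willi region genes (black diamonds) and the 70 other genes tested within 5 Mb (grey), by distance of the gene midpoint from the Snrpn-201 start in Mb. Magel2, at 2.60, is the highest point, and the other 7 lie between -0.44 and 0.52.

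Genes that work with the region's products were described by lists chosen with earlier results of these data known. Over all genes, 9.29% were higher and 8.78% lower at an unadjusted edgeR p under 0.05. Among 10 tested genes of the Magel2, Trim27 and WASH complex list, edgeR and DESeq2 called 0, with 1 higher and 1 lower at an unadjusted edgeR p under 0.05, and their median log2 fold change was 0.06. Trim27, the ligase partner of Magel2, had 69.9, 65.7 and 64.4 CPM in mutant replicates 1 to 3, against 55.1, 53.1 and 61.5 CPM in wild-type replicates 1 to 3. Every mutant tumour was higher for Trim27, with a log2 fold change of 0.24, and the edgeR adjusted p was 0.199. Of 6 tested MAGE family genes, edgeR and DESeq2 called 0, with 1 lower at an unadjusted edgeR p under 0.05 and a median of -0.01. Of 6 tested Frat and Gsk3 genes they called 0, with 0 at an unadjusted p under 0.05 and a median of -0.04.

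Of the 8 Sm proteins of the spliceosome, edgeR called 0, with 2 higher at an unadjusted p under 0.05, beside 9.29% of genes. DESeq2 called 1 of the 8 higher, beside 2.96% of genes, and their median was 0.17. The gene called was Snrpd1, with a log2 fold change of 0.36 and an adjusted p of 0.130 in edgeR and 0.00455 in DESeq2. Of 7 makorin and E6-AP related ubiquitin ligase genes, edgeR and DESeq2 called 0, and their median was 0.05. At an unadjusted edgeR p under 0.05, 1 of the 7 was higher, beside 9.29% of genes. Of 11 tested genes that maintain or erase imprints, edgeR called 0. At an unadjusted p under 0.05, 2 of the 11 were higher, beside 9.29% of genes, and 1 lower, beside 8.78%. DESeq2 called Zfp57 lower, 1 of 11 beside 2.26% of genes, and the median of the 11 was 0.07. Zfp57, the zinc finger protein that keeps methylation at imprinting centres, had 86.9, 109.5 and 104.5 CPM in mutant replicates 1 to 3, against 135.9, 136.4 and 121.3 CPM in wild-type replicates 1 to 3. All mutant tumours were below all wild-type tumours for Zfp57, with a log2 fold change of -0.39, and the adjusted p was 0.155 in edgeR and 0.0386 in DESeq2.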

How the data were processed

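RNA sequencing covered 6 medulloblastoma libraries, 3 Eed mutant and 3 wild type, grouped by the labels. The deposited files give estimated counts and TPM per transcript, made by the authors with kallisto 0.43.1 on GRCm38 (mm10), per the submitters' processing notes. The sources used here do not give the GENCODE release, strand or read length. Members were matched by symbol. Estimated counts were summed per gene and rounded. Genes and transcripts were tested with edgeR 4.0.16 (quasi-likelihood, TMM, filterByExpr) in R 4.3.3, adjusted by Benjamini-Hochberg over all 19145 genes or 50890 transcripts. DESeq2 1.42.0 and limma 3.58.1 were alternatives. Fold changes are mutant over wild type. Depth was 26186236 to 26425111 estimated counts per library, and intervals or floors from counts cover counting error only. Transcript shares used exact permutation tests. Loci came from GENCODE M21, in which 52403 gene identifiers matched and 147 did not. Named genes were all members, their transcripts with a mean of at least 5 counts, the extremes and calls of each list, and the 3 nearest profiles at a mean of at least 1 CPM. One gene named by this rule is not reported here. The methods were tested on simulated data. The members and lists were chosen with earlier results of these data known.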

Additional observations from a re-analysis of the deposited data

How the results depend on the processing

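The count of genes called by edgeR over all genes was 0, and it was 923 in DESeq2, 1 in limma-voom, 1 on log2(TPM + 0.1), 3 with no filter on low counts and 0 to 9 with 1 library left out (4 without wild-type replicate 2 and 9 without mutant replicate 2). The labels do not say whether replicate numbers pair the tumours. Correlations of same-numbered deviations from the group means were 0.23, 0.06 and -0.13, which cannot decide it with 3 libraries per group. The replicate block called 273 genes over all, 1 neighbouring gene and none of the 8 members. DESeq2 called 1 member gene, 2 member transcripts and 2 neighbours, against 0 in edgeR. Of 508 fold changes of members under alternatives, 487 kept their direction and their side of the threshold, 3 passed it and 18 turned. Mkrn3 ranged over -0.033 to 0.22 with 1 library left out, Mkrn3-201 over -0.031 to 0.24, Snhg14-208 over -0.60 to 0.22, Snhg14-212 over -0.61 to 0.068, Snhg14-213 over -0.020 to 0.39, Ube3a-205 over -0.012 to 0.16, Ube3a-215 over -0.49 to 0.013 and Snrpn-202 over -1.81 to 0.68. Snrpn-202 was 0.66 in limma-voom, 0.0079 on log2(TPM + 0.1) and 0.15 with the block. Transcript shares turned as shares of TPM for Snhg14-212 (0.0190 percentage points), Snhg14-206 (0.0573), Snhg14-211 (0.855) and Ube3a-203 (-0.344). With 1 library left out the share differences ranged over -0.225 to 0.0749 percentage points for Snhg14-212, -0.328 to 0.159 for Snhg14-208, -0.155 to 0.0520 for Snhg14-206, -1.27 to 0.919 for Snhg14-211, -0.229 to 0.356 for Ube3a-203 and -0.164 to 0.0600 for Ube3a-215. The cause was not tested. Magel2 ranged over 0.98 on log2(TPM + 1) to 3.24 and did not turn under any alternative run. A filter of at least 1 CPM in 3 libraries left no value for Snhg14-201, Snhg14-205, Snhg14-208 and Snrpn-202. Depth limits Magel2 in wild-type tumours and Snrpn-202 in all tumours, which rested on few counts.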
